A study of Mus musculus with 16 samples.

Results

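Fezf2, Bcl11b, Tbr1, Sox5, Tle4, Foxp2, Zfpm2, Syt6, Crym and Cplx3 are 10 genes that mark and specify the projection neurons of the deep cortical layers, and they are described here in the medial prefrontal cortex of newborn and 2-week-old mice, the offspring of stressed and of unstressed dams. They were looked up by gene name in the 2 deposited tables, which found 9 of 10. The row of Bcl11b carries the name Rit1, a synonym that a second row with another identifier also carries, so Bcl11b was taken by its Ensembl identifier. The 10 members were counted in all 16 libraries, and the tables have 18268 genes in common. There were 4 groups of 4 libraries each, namely pups of prenatally stressed dams (PNS) at P14 and at P1, and pups of unstressed control dams (Ctrl) at P14 and at P1, where P1 and P14 are 1 and 14 days after birth. All libraries came from male pups of the ICR stock, an outbred laboratory mouse, and poly(A) RNA of the dissected cortex was sequenced in bulk. The kind and days of the stress, and whether libraries of a group came from separate animals or litters, are not stated in the labels. The p-values therefore measure only the spread between these libraries.

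The deep layers of the cortex, layers 5 and 6 with the subplate beneath them, send axons out of the cortex: layer 5 neurons to the brainstem and spinal cord, layer 6 neurons to the thalamus. Their fates are fixed before birth by transcription factors that act on each other, among which Fezf2 promotes the subcerebral fate through Bcl11b, and Tbr1 promotes the corticothalamic fate and represses Fezf2 and Bcl11b. Some of these genes are also used outside the cortical plate: Bcl11b and Foxp2 by striatal projection neurons, and Tbr1 by the mitral and tufted cells of the olfactory bulb.

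Among the regulators, Fezf2 (ENSMUSG00000021743, chr14:12342094-12348189, minus strand) encodes a zinc finger factor of layer 5 subcerebral neurons. Bcl11b (ENSMUSG00000048251, chr12:107910403-108003602, minus strand), also called Ctip2, encodes a zinc finger factor needed for corticospinal axon growth. Tbr1 (ENSMUSG00000035033, chr2:61802930-61814114, plus strand) encodes the T-box factor of layer 6 and subplate neurons. Sox5 (ENSMUSG00000041540, chr6:143828425-144781977, minus strand) encodes an SRY-box factor that times the production of corticofugal neuron types. Tle4 (ENSMUSG00000024642, chr19:14448150-14598051, minus strand) encodes a Groucho-type corepressor of corticothalamic neurons. Foxp2 (ENSMUSG00000029563, chr6:14901349-15441977, plus strand) encodes a forkhead factor of layer 6. Zfpm2 (ENSMUSG00000022306, chr15:40655035-41104592, plus strand), also called Fog2, encodes a cofactor of GATA factors found in corticothalamic neurons. Of the 3 markers with other functions, Syt6 (ENSMUSG00000027849, chr3:103575231-103645569, plus strand) encodes a synaptotagmin, a membrane trafficking protein. Crym (ENSMUSG00000030905, chr7:120186380-120202111, minus strand) encodes mu-crystallin, a cytosolic thyroid hormone binding protein. Cplx3 (ENSMUSG00000039714, chr9:57599992-57606281, minus strand) encodes a complexin, a regulator of synaptic vesicle fusion that marks subplate and layer 6b. Coordinates are of GRCm38 with GENCODE M21. Exons of Sox5 overlap an antisense gene, Sox5os1, over 1330 bases (9.25% of its exon length), and exons of Syt6 overlap the antisense pseudogene Atg4a-ps over 505 bases (8.67%). No label gives the strand setting of the libraries, and reads of those stretches cannot be assigned to 1 gene.

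The promoters of 3 members with different age courses are shown, each as the 250 bases before the RefSeq transcription start (GRCm38.p6), read 5′ to 3′ on the gene's strand. Bcl11b (chr12:108003415-108003664, minus strand) and Tbr1 (chr2:61804203-61804452, plus strand) belong to the members whose RNA was lower at P14, and Cplx3 (chr9:57606282-57606531, minus strand) had the largest increase with age. Capitals mark matches to the motifs searched.
Bcl11b: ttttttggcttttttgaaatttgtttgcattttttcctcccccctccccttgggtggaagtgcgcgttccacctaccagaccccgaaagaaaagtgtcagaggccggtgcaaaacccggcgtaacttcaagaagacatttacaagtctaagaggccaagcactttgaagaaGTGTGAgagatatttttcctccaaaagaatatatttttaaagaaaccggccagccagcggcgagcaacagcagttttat
Tbr1: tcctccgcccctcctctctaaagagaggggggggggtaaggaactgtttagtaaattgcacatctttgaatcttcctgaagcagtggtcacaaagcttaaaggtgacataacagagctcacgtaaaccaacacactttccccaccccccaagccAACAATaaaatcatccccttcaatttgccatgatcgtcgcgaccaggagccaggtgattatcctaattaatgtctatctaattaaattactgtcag
Cplx3: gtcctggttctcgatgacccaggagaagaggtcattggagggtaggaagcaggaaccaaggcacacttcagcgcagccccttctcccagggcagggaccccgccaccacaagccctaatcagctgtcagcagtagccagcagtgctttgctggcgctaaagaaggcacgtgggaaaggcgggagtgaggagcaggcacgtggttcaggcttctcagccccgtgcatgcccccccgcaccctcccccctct
Motifs were searched on both strands of the 250 bases before to 50 bases after the start. The capitals in Bcl11b are the T-box motif TCACAC on the opposite strand, at position -79 from the start, and this motif was in 14.5% of 32851 promoters. The capitals in Tbr1 are the SOX core AACAAT, at position -96 from the start, which was in 10.7% of promoters and also in an alternative promoter of Tle4. The glucocorticoid receptor motif AGAACA (19.0% of promoters) was matched in Sox5 among the 7 members with a promoter in the table, and the palindromic glucocorticoid response element (0.00913%), the forkhead motif TGTTTAC (3.65%) and the E-box CAGATG (17.2%) in none of the 7. The window of Cplx3 held none of these motifs. A match is a string of letters and no evidence of binding. The GC content of the 300-base windows was 43% in Bcl11b, 46% in Tbr1 and 62.7% in Cplx3, against a median of 52.7% over all promoters. Foxp2, Zfpm2 and Crym were not searched.

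Depth was 26614045 to 40897034 reads per library in PNS and 15068575 to 72978561 in Ctrl at P14, and 48004686 to 58842635 in PNS and 33977413 to 50587460 in Ctrl at P1. All values below are the authors' normalized read counts unless another scale is named, and the 2 tables were normalized separately. The cortical projection neuron genes Slc17a7, Neurod6, Neurod2 and Emx1 were present in every library, the lowest of them, Emx1, at 939 to 1301 at P14 and 1414 to 2049 at P1. Some P1 libraries stood apart in genes of neighbouring tissue. All 11 olfactory bulb markers had a higher mean in PNS at P1 (median log2 difference 1.56, 7 with an unadjusted p below 0.05), and their summed level was 7753, 15634, 11989.9 and 1208 in PNS replicates 1 to 4, against 4308, 1941, 3985 and 1846 in Ctrl replicates 1 to 4. PNS replicates 1, 2 and 3 were thus above every Ctrl library and PNS replicate 4 below every Ctrl library. Meningeal fibroblast markers had a higher mean in PNS for 10 of 10 genes (median 0.57, 8 with an unadjusted p below 0.05) and summed to 43128, 58421, 64628 and 36470.2 in PNS libraries, against 33749, 32561, 30673 and 38017 in Ctrl libraries. Striatal markers had a lower mean in PNS for 14 of 15 genes, the direction of the members (median -0.20, 3 with an unadjusted p below 0.05 and lower values in PNS), and summed to 26472, 32425, 29657 and 30209.7 in PNS libraries, against 40862, 27936, 28377 and 34363 in Ctrl libraries, highest in Ctrl replicate 1. Myelin markers at P1 had a higher mean in PNS for 7 of 9 genes and summed to 8678, 12929, 10134 and 5038 in PNS libraries, against 5132 to 5945 in Ctrl libraries. Thalamic markers had a higher mean in PNS for 8 of 9 genes, interneuron markers for 8 of 12 and progenitor markers for 5 of 9, while upper-layer markers were lower in PNS for 8 of 12. None of the markers of these lists was at 0 in all libraries of a group. At P14 the olfactory bulb sums were 1530.4 to 1802 in PNS and 1855 to 2899 in Ctrl, and the olfactory bulb markers Barhl2 and Omp were under 10 in every library. These 2 ranges did not overlap, and 8 of 9 tested bulb markers were lower in PNS (median log2 difference -0.50, 3 with an unadjusted p below 0.05). By log2 difference, meningeal markers were lower in PNS at P14 for 10 of 10 genes (median -0.16) and myelin markers for 9 of 10 (median -0.35). By group mean, 9 of 10 meningeal markers were lower. Of the meningeal and myelin markers, 0 had an unadjusted p below 0.05. Marker levels thus leaned to 1 side between the groups at both ages, but at P14 only the bulb sums were without overlap. The meningeal sums at P14 were 5042 to 10018 in PNS and 7299 to 8758 in Ctrl, and the myelin sums overlapped as well.

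The comparison of PNS with Ctrl at P1 addresses whether stress before birth was followed by other levels of these genes in the newborn cortex. All 10 members had lower values in PNS than in Ctrl, with log2 differences of -1.6 to -0.042 and a median of -0.27, but none passed the test. The lowest relative to Ctrl was Cplx3, at a difference of -65.3% of the Ctrl mean, followed by Crym at -31.4% and Syt6 at -24.1%. No member had groups without overlap, where 1.54% of genes had all PNS values below and 1.69% all PNS values above the Ctrl values. Tested by limma on log2(value + 1) with Benjamini-Hochberg adjustment, 0 of 10 members had an adjusted p below 0.05, where 0% of 16711 genes did. Over all genes the median was -0.017 and 55.5% of genes were lower in PNS. Unadjusted, 5 members had a p below 0.05 (Cplx3, Syt6, Sox5, Tle4 and Crym), all lower in PNS, where 6.67% of all genes had such a p and 2.09% had it with lower values in PNS. By edgeR and by DESeq2 on recovered reads, 0 members were called and 4 had an unadjusted p below 0.05. Such a p was found for 1195 of 16832 genes by edgeR and 1341 of 19748 by DESeq2. That deep-layer genes stood lower at P1 was known when these members were chosen, so their common direction is a description and no separate evidence. In bulk RNA, fewer cells of a type and less RNA per cell cannot be told apart.

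**Figure D1:**
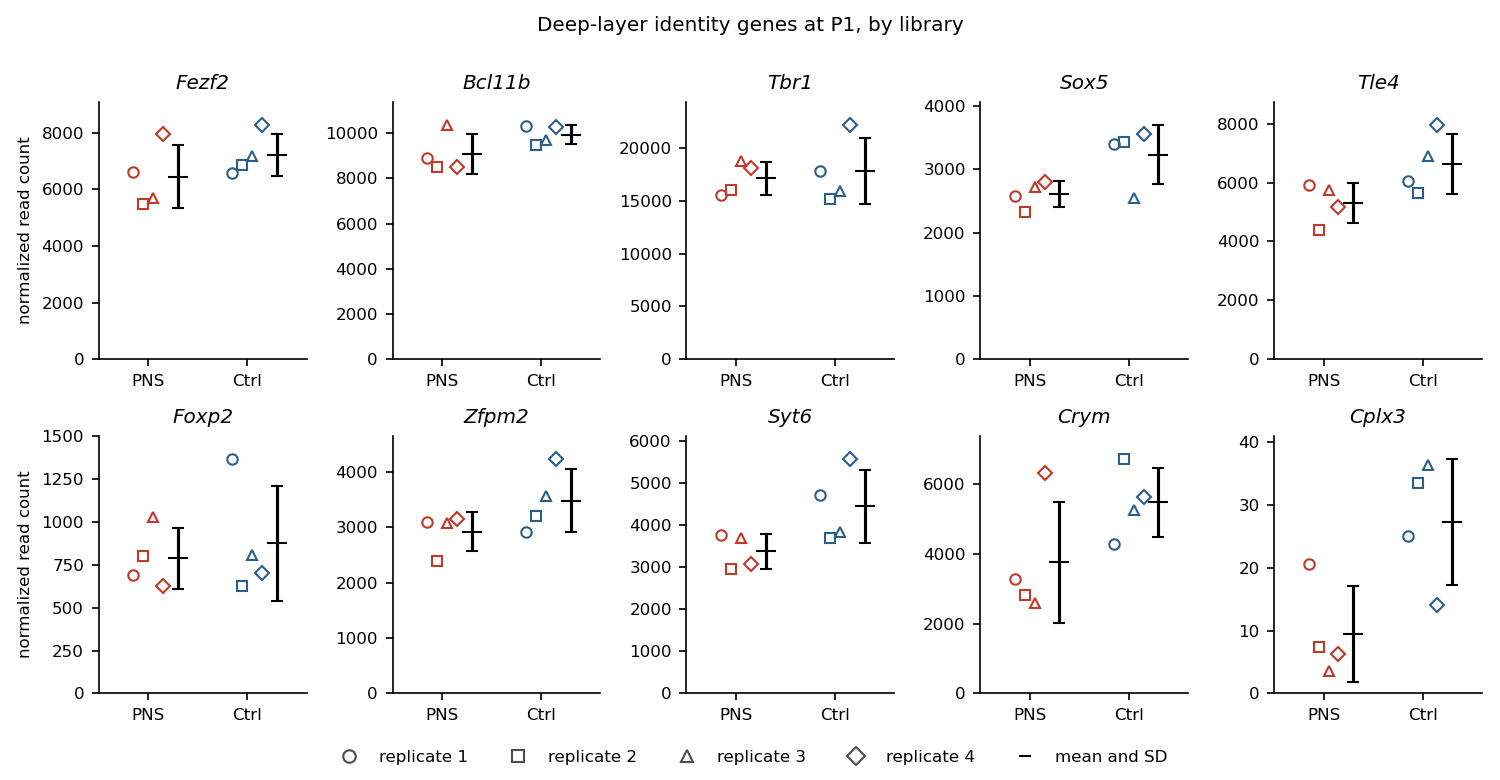
Normalized read counts (vertical axis, from 0) of the 10 members at P1 by library, PNS left and Ctrl right; symbols give the replicate number, and the bar gives the group mean and SD (n = 4). Group ranges overlap in every panel, and 3 of 4 PNS libraries lie below all Ctrl libraries for Bcl11b, Crym and Cplx3.

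Of the regulators, Fezf2 had 6609, 5496, 5712 and 7959 in PNS replicates 1 to 4, against 6571, 6858, 7173 and 8273 in Ctrl replicates 1 to 4. PNS replicates 2 and 3 lay below all Ctrl libraries, while PNS replicate 4 was above 3 of the 4 Ctrl libraries, and the log2 difference was -0.17 ± 0.12 (SE; limma adjusted p = 0.799). Bcl11b had 8877, 8514, 10350.0 and 8504 in PNS replicates 1 to 4, against 10299, 9479.9, 9677 and 10285 in Ctrl replicates 1 to 4. PNS replicates 1, 2 and 4 were below all Ctrl libraries and PNS replicate 3 was above all of them, with a difference of -0.14 ± 0.072 (limma adjusted p = 0.772). Tbr1, the most abundant member, had 15606, 16076, 18836 and 18119 in PNS replicates 1 to 4, against 17868, 15239.9, 15928 and 22209 in Ctrl replicates 1 to 4. Every PNS value lay within the Ctrl range, and the difference was -0.042 ± 0.12 (limma adjusted p = 0.951).

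Sox5 had 2585, 2333, 2722 and 2794 in PNS replicates 1 to 4, against 3404, 3426, 2540.5 and 3566 in Ctrl replicates 1 to 4. The PNS libraries were close together and below 3 of the 4 Ctrl libraries, and Ctrl replicate 3 was the low one in its group. The log2 difference was -0.30 ± 0.11 (limma adjusted p = 0.687). Tle4 had 5927, 4394, 5759 and 5156 in PNS replicates 1 to 4, against 6054, 5646, 6918 and 7956 in Ctrl replicates 1 to 4. PNS replicates 2 and 4 were below all Ctrl libraries, and the difference was -0.32 ± 0.12 (limma adjusted p = 0.689). Foxp2 had 691, 803, 1028 and 628 in PNS replicates 1 to 4, against 1366, 629, 809 and 699 in Ctrl replicates 1 to 4. The highest value was that of Ctrl replicate 1, the library with the highest striatal marker sum, and the other Ctrl libraries were in the range of the PNS libraries. The difference of Foxp2 was -0.11 ± 0.23 (limma adjusted p = 0.935), and 0.038 with a striatal marker score as covariate, the opposite sign, as without Ctrl replicate 1 (0.13). Zfpm2 had 3097, 2385, 3069 and 3141 in PNS replicates 1 to 4, against 2923, 3204, 3565 and 4228 in Ctrl replicates 1 to 4. PNS replicate 2 was the lowest of all and the other 3 PNS libraries lay within the Ctrl range, with a difference of -0.25 ± 0.12 (limma adjusted p = 0.755).

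Of the markers with other functions, Syt6 had 3776, 2963, 3711 and 3076 in PNS replicates 1 to 4, against 4723, 3691, 3838 and 5578 in Ctrl replicates 1 to 4. PNS replicates 2 and 4 were below all Ctrl libraries and the other 2 lay among the lower Ctrl values (difference -0.39 ± 0.13, limma adjusted p = 0.687). Crym had 3268, 2822, 2597 and 6317 in PNS replicates 1 to 4, against 4286, 6709, 5255 and 5627 in Ctrl replicates 1 to 4. PNS replicates 1, 2 and 3 were below every Ctrl library and PNS replicate 4 was above 3 of the 4 Ctrl libraries. The difference of Crym was -0.62 ± 0.25 (limma adjusted p = 0.732), and -0.91 without PNS replicate 4, where its limma adjusted p was 0.0257. Cplx3 was near its detection limit, with 20.6, 7.41, 3.54 and 6.34 in PNS replicates 1 to 4, against 25.1, 33.4, 36.4 and 14.1 in Ctrl replicates 1 to 4. These values rest on 23, 8, 4 and 8 reads in PNS libraries, against 26, 36, 27 and 10 reads in Ctrl libraries. PNS replicates 2, 3 and 4 were below all Ctrl libraries and PNS replicate 1 was above Ctrl replicate 4 (difference -1.6 ± 0.48, limma adjusted p = 0.669).

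The libraries with the most olfactory bulb marker RNA were also those with the least Crym, and PNS replicate 4, with the least bulb marker RNA of the 8, had the second highest Crym. With an olfactory bulb marker score as covariate, the median of the members was -0.20, with 8 of 10 lower and 2 at an unadjusted p below 0.05. Of all 16711 genes in this fit, 597 had such a p. The log2 difference of Crym was then -0.014, that of Fezf2 0.076 and that of Tbr1 0.021, against -1.68 for Cplx3, -0.42 for Syt6 and -0.28 for Tle4. That score was 1.03, 1.92, 1.56 and -1.37 in PNS replicates 1 to 4, against -1.31 to -0.037 in Ctrl libraries. It thus largely followed the groups, and stress and bulb content cannot be told apart by this fit, for any member. Without PNS replicates 2 and 3, which had the highest bulb sums, the median was -0.25 and 9 of 10 members were lower. Of the members, 1 had an unadjusted p below 0.05, where 362 of 16633 genes did. In that fit Crym was at -0.25, Fezf2 at 0.012, Cplx3 at -1.08 and Syt6 at -0.37. Without PNS replicate 4, the library low in bulb markers, the median was -0.30 and 10 of 10 members were lower. Of the members, 6 had an unadjusted limma p below 0.05, where 2096 of 16702 genes did. Called were 123 of these genes, 120 higher and 3 lower in PNS, with Crym as the single member, among the 3. With the striatal marker score as covariate, the median was -0.30 and 9 of 10 members were lower. There, 7 members had an unadjusted limma p below 0.05, where 1600 of 16711 genes did. The part of meningeal, myelin and thalamic RNA in these values was not tested.

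At P14 the same comparison gave small differences of the opposite sign for most members. Values in PNS were higher than in Ctrl for 9 of 10 members and lower for Cplx3, with a median log2 difference of 0.14, and none passed the test. Tested by limma, 0 of 10 members had an adjusted p below 0.05, where 0% of 15873 genes did. No member had an unadjusted p below 0.05, against 3.02% of all genes, and none had groups without overlap, against 1.05% of genes with all PNS values higher and 1.07% with all PNS values lower. Over all genes 50.6% were higher in PNS and the median was 0.0015. By edgeR and by DESeq2 on recovered reads, 0 members were called and 0 had an unadjusted p below 0.05. Such a p was found for 462 of 15891 genes by edgeR and 487 of 19014 by DESeq2.

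**Figure D2:**
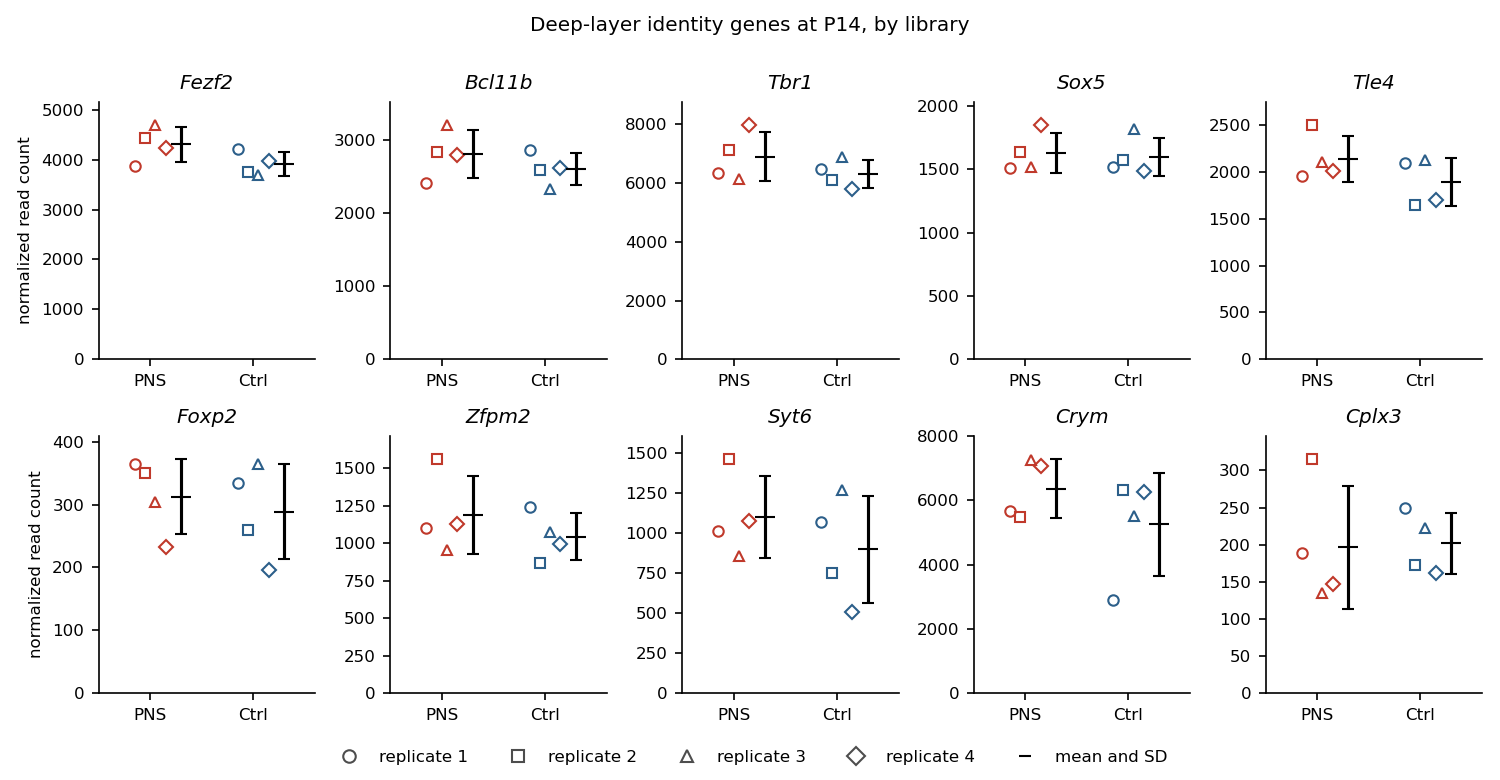
Normalized read counts (vertical axis, from 0) of the 10 members at P14 by library, PNS left and Ctrl right; symbols give the replicate number, and the bar gives the group mean and SD (n = 4). Group ranges overlap in every panel, and 3 of 4 PNS libraries lie above all Ctrl libraries for Fezf2.

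Fezf2 had 3874, 4426, 4695 and 4237 in PNS replicates 1 to 4, against 4214, 3756, 3684 and 3970.4 in Ctrl replicates 1 to 4. PNS replicates 2, 3 and 4 were above all Ctrl libraries, by a small margin (difference 0.14 ± 0.071, limma adjusted p = 0.988). Bcl11b ranged over 2409 to 3209 in PNS and 2327 to 2861 in Ctrl (difference 0.11 ± 0.091), with 1 PNS library above all Ctrl libraries. Tbr1 ranged over 6141 to 7981 in PNS and 5784 to 6879.6 in Ctrl (difference 0.13 ± 0.089), with 2 PNS libraries above all Ctrl libraries. These 3 regulators thus overlapped between the groups.

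Sox5 was close to equal, at 1513 to 1852 in PNS and 1487 to 1822 in Ctrl (difference 0.027 ± 0.087). Tle4 ranged over 1954 to 2503 in PNS and 1651 to 2128 in Ctrl (difference 0.18 ± 0.11). Foxp2 ranged over 232 to 364 in PNS and 197 to 364 in Ctrl (difference 0.13 ± 0.20). Zfpm2 ranged over 957 to 1558 in PNS and 867 to 1239 in Ctrl (difference 0.17 ± 0.15), highest in PNS replicate 2. Within these 4 genes at most 1 PNS library of 4 lay above all Ctrl libraries.

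Syt6 had 1013, 1464, 862 and 1077 in PNS replicates 1 to 4, against 1069, 752, 1271 and 512 in Ctrl replicates 1 to 4. PNS replicate 2 was highest and Ctrl replicate 4 lowest of the 8, and the other values overlapped (difference 0.35 ± 0.26, limma adjusted p = 0.988). Crym had 5670.5, 5467, 7244 and 7051 in PNS replicates 1 to 4, against 2915, 6332, 5511 and 6251 in Ctrl replicates 1 to 4. PNS replicates 3 and 4 were above all Ctrl libraries, and Ctrl replicate 1 was far below the other 7 libraries (difference 0.33 ± 0.22, limma adjusted p = 0.988). Without that Ctrl library the difference of Crym was 0.068. Cplx3 had 189, 315, 135 and 147 in PNS replicates 1 to 4, against 249.7, 173, 222 and 162 in Ctrl replicates 1 to 4, with PNS values both below and above the whole Ctrl range (difference -0.099 ± 0.25). The limma adjusted p was 0.988 to 0.990 for all 10 members. Myelin marker sums spread widely in both groups at this age, 15652 to 56598 in PNS and 20437 to 59847 in Ctrl, and their part in these values was not tested.

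**Figure D3:**
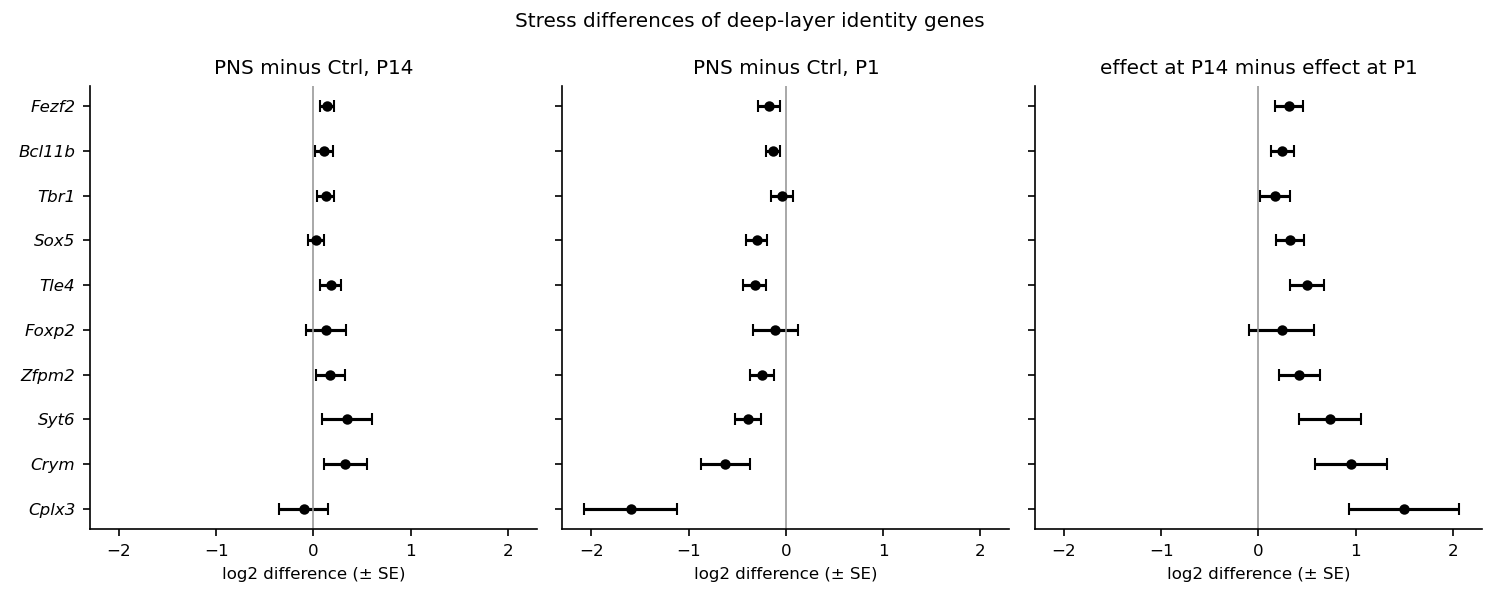
Log2 differences (horizontal axis, point ± SE from limma) of the 10 members, given down the page: PNS minus Ctrl at P14 on the left, PNS minus Ctrl at P1 in the middle, and the P14 effect minus the P1 effect on the right. Points lie right of 0 for 9 of 10 members at P14, left of 0 for 10 of 10 at P1 and right of 0 for 10 of 10 in the difference.

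Whether the stress effect itself differed between the ages was tested as the PNS effect at P14 minus the PNS effect at P1, in 1 limma fit of the 16 libraries. The difference was positive for all 10 members, with a median of 0.37, and none passed the test. Of 10 members, 0 had an adjusted p below 0.05, where 0% of 15502 genes did. By edgeR and by DESeq2 on recovered reads 0 members were called and 5 had an unadjusted p below 0.05. Such a p was found for 1037 of 17139 genes by edgeR and 1123 of 18268 by DESeq2. In the limma fit 54% of all genes were positive and the median was 0.016. The signs at the 2 ages were higher in PNS at P14 and lower at P1 for 9 members, as for 30.3% of all genes. Unadjusted, 6 members had a p below 0.05, all positive, where 5.89% of all genes had such a p and 2.34% had it with a positive difference. This difference contains the P1 effect, whose direction was known when the members were chosen. The common positive sign and these 6 members are therefore a description and no separate evidence. Olfactory bulb markers were negative in the same fit for 9 of 9 tested genes (median -2.47).

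By gene, Cplx3 had an effect of -0.099 at P14 and -1.6 at P1, a difference of 1.5 ± 0.57 (limma adjusted p = 0.798). Crym had 0.33 at P14 and -0.62 at P1, a difference of 0.95 ± 0.37 (limma adjusted p = 0.798). Syt6 had 0.35 at P14 and -0.39 at P1, a difference of 0.74 ± 0.32 (limma adjusted p = 0.820). These are the 3 largest differences, of the 3 members that are not transcriptional regulators, and Cplx3 at P1 rests on 4 to 36 reads per library. The smallest p of the 10 members was that of a regulator, Tle4, with 0.18 at P14 and -0.32 at P1. Its difference was 0.50 ± 0.17 (limma adjusted p = 0.798). Zfpm2 differed by 0.42 ± 0.21, Sox5 by 0.33 ± 0.15 (limma adjusted p = 0.820) and Fezf2 by 0.31 ± 0.14 (limma adjusted p = 0.820). Bcl11b differed by 0.25 ± 0.12, Foxp2 by 0.24 ± 0.34 and Tbr1 by 0.17 ± 0.16. The limma adjusted p was 0.798 to 0.903 over the 10 members. Without PNS replicates 2 and 3 of P1, the median was again 0.37, with 2 members at an unadjusted p below 0.05, where 492 of 15483 genes were. In that fit the difference was 0.58 for Crym and 0.13 for Fezf2.

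The age course was measured as P14 against P1 within each condition, from whole reads recovered from the normalized values, as CPM (reads scaled to library totals adjusted by TMM over the 16 libraries), and tested by edgeR. The members' summed level was 810.2 ± 56.6 CPM in PNS at P14 and 1019 ± 94.4 CPM in PNS at P1 (SD, n = 4), and 725 ± 23.5 CPM in Ctrl at P14 and 1163 ± 116 CPM in Ctrl at P1. In PNS, 6 members fell and 2 rose, and in Ctrl, 8 fell and 1 rose. Of all 17139 genes tested, 72.3% were called in PNS (38% lower and 34.3% higher at P14) and 71.2% in Ctrl (36.4% lower and 34.8% higher), so most genes were called at this span of age. The median of the members was -0.71 in PNS and -0.94 in Ctrl, against -0.066 and -0.037 over all genes. Between the ages, 10 of 10 meningeal markers were called lower at P14 in both conditions, progenitor markers 8 of 9 in PNS and 7 of 9 in Ctrl, and myelin markers were called higher for 7 of 9 in PNS and 9 of 9 in Ctrl. Olfactory bulb markers were called lower for 9 of 11 in PNS and 3 of 11 in Ctrl, and the part of these cells in the members' values was not tested. These comparisons use the same libraries as the stress comparisons and are no separate support for them.

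**Figure D4:**
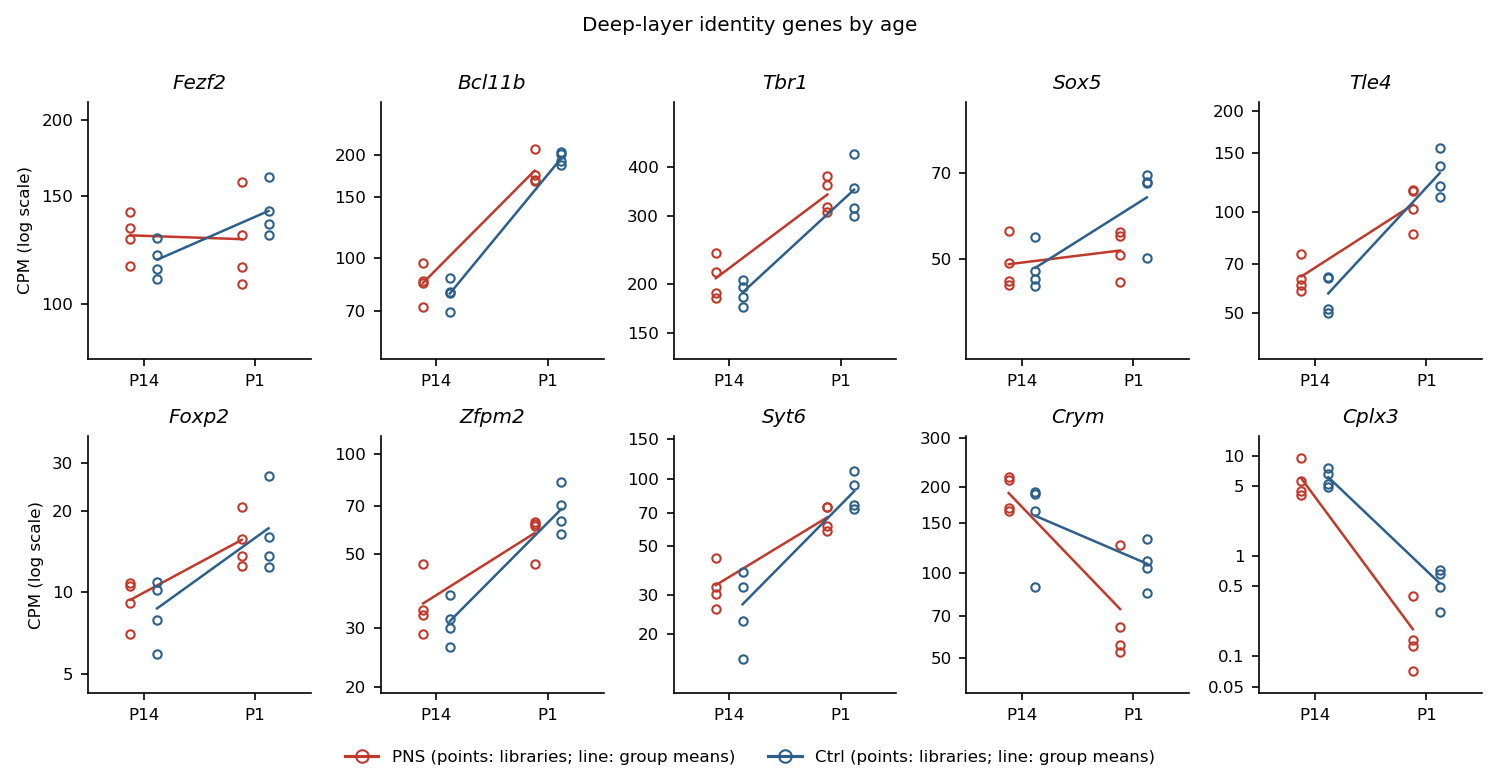
Level of each member in CPM (vertical axis, log scale) at P14 (left) and P1 (right); points are libraries (n = 4 per group), lines join the group means, PNS in red and Ctrl in blue. Bcl11b, Tbr1, Tle4, Foxp2, Zfpm2 and Syt6 are lower at P14 in both conditions, Cplx3 is higher at P14 in both, and the lines of Fezf2 and Sox5 are nearly flat in PNS.

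Bcl11b fell in both conditions, to 84.5 ± 10.1 CPM at P14, against 179.6 ± 19.2 CPM at P1, in PNS (log2 difference -1.09 ± 0.091, edgeR adjusted p = 9.74e-09). In Ctrl it was 78.7 ± 7.23 CPM at P14 and 195 ± 7.80 CPM at P1 (log2 difference -1.31 ± 0.091, edgeR adjusted p = 8.88e-10). The ranges at the 2 ages did not overlap in either condition. The share of all genes without overlap between the ages was not counted, and most genes were called at this span of age. Tbr1 fell to 208 ± 25.7 CPM at P14, against 340.1 ± 34.7 CPM at P1, in PNS, and to 191 ± 13.3 CPM at P14, against 350.1 ± 59.6 CPM at P1, in Ctrl. Its log2 differences were -0.71 ± 0.11 in PNS (edgeR adjusted p = 2.14e-05) and -0.88 ± 0.11 in Ctrl (edgeR adjusted p = 2.07e-06). Even so Tbr1 had the highest mean CPM of the 10 members in all 4 groups.

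The corticothalamic regulators Tle4, Zfpm2 and Foxp2 fell as well. Tle4 had log2 differences of -0.71 ± 0.12 in PNS and -1.19 ± 0.12 in Ctrl (edgeR adjusted p = 6.15e-05 and 1.56e-07). Zfpm2 had -0.70 ± 0.15 in PNS and -1.12 ± 0.15 in Ctrl (edgeR adjusted p = 4.60e-04 and 3.84e-06). Foxp2 had -0.73 ± 0.24 in PNS and -1.0 ± 0.24 in Ctrl (edgeR adjusted p = 0.0120 and 0.00144). The marker Syt6 had the largest decrease in Ctrl, to 27.2 ± 10 CPM at P14, against 87.6 ± 16.7 CPM at P1, and in PNS fell to 33.2 ± 7.74 CPM, against 67.0 ± 8.60 CPM. Its log2 differences were -1.02 ± 0.22 in PNS (edgeR adjusted p = 5.47e-04) and -1.70 ± 0.22 in Ctrl (edgeR adjusted p = 2.93e-06).

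Fezf2 and Sox5 passed the test in Ctrl and not in PNS. Fezf2 had 129 ± 10.9 CPM at P14 and 128 ± 22.3 CPM at P1 in PNS (log2 difference 0.021 ± 0.10, edgeR adjusted p = 0.864). In Ctrl it fell to 118 ± 7.95 CPM at P14, against 142 ± 13.8 CPM at P1 (log2 difference -0.26 ± 0.10, edgeR adjusted p = 0.0321), a call that ended when any of 5 single Ctrl libraries was left out. Sox5 had 49.0 ± 4.88 CPM at P14 and 51.7 ± 4.44 CPM at P1 in PNS (log2 difference -0.078 ± 0.10, edgeR adjusted p = 0.501). In Ctrl it fell to 48.3 ± 4.2 CPM at P14, against 63.6 ± 8.96 CPM at P1 (log2 difference -0.40 ± 0.10, edgeR adjusted p = 0.00204). The test of the difference between conditions is the one above, in which neither gene passed.

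Cplx3 rose in both conditions. It reached 5.91 ± 2.48 CPM at P14, against 0.187 ± 0.148 CPM at P1, in PNS, which was 31.2-fold higher (log2 difference 4.96 ± 0.41, edgeR adjusted p = 8.85e-09). In Ctrl it reached 6.10 ± 1.24 CPM at P14, against 0.537 ± 0.199 CPM at P1, which was 11.2-fold higher (log2 difference 3.48 ± 0.37, edgeR adjusted p = 1.96e-07). All 8 P14 libraries were above all 8 P1 libraries, a separation whose share over all genes was not counted. Crym rose in PNS, to 191 ± 28.2 CPM at P14, against 74.3 ± 34.5 CPM at P1, which was 2.57-fold higher (log2 difference 1.36 ± 0.26, edgeR adjusted p = 1.96e-04). In Ctrl it had 159 ± 48.3 CPM at P14 and 108 ± 19.5 CPM at P1 and did not pass (log2 difference 0.56 ± 0.26, edgeR adjusted p = 0.0646). The 3 P1 PNS libraries with the lowest Crym are the 3 with high olfactory bulb marker RNA. Without Ctrl replicate 1 of P14 the log2 difference in Ctrl was 0.76 and Crym was called, as it was without Ctrl replicate 2 of P1.

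To compare levels between genes, normalized counts were divided by exon length in kb. At P14, the order began with Crym at 1875 ± 271 per kb in PNS and 1549 ± 472 per kb in Ctrl (SD, n = 4). Fezf2 followed with 1414 ± 113 in PNS and 1282 ± 78.3 in Ctrl, and Tbr1 with 1259 ± 152 in PNS and 1150.4 ± 86.0 in Ctrl. In Ctrl the ranges of mean ± SD of these 3 overlapped. At P1, Tbr1 led with 3128 ± 285 per kb in PNS and 3247 ± 572 per kb in Ctrl, ahead of Fezf2 with 2115 ± 367 in PNS and 2369 ± 244 in Ctrl. In PNS, Bcl11b, Crym and Tle4 came next, with levels of 1117 ± 108, 1106 ± 511 and 931 ± 122 per kb, which their spread did not separate. In Ctrl at P1 the order was Crym at 1613 ± 295, Bcl11b at 1225 ± 51.8 and Tle4 at 1165 ± 179 per kb. The lowest at P14 was Foxp2 with 19.1 ± 3.64 per kb in PNS and 17.7 ± 4.62 per kb in Ctrl, and the lowest at P1 was Cplx3 with 3.21 ± 2.57 per kb in PNS and 9.23 ± 3.38 per kb in Ctrl. Among all genes with an exon length, the level per kb of Tbr1 was at percentile 92.4 at P14 and 96.9 at P1, that of Foxp2 at 31.0 and 39.0, and that of Cplx3 at 46.8 and 17.7.

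**Figure D5:**
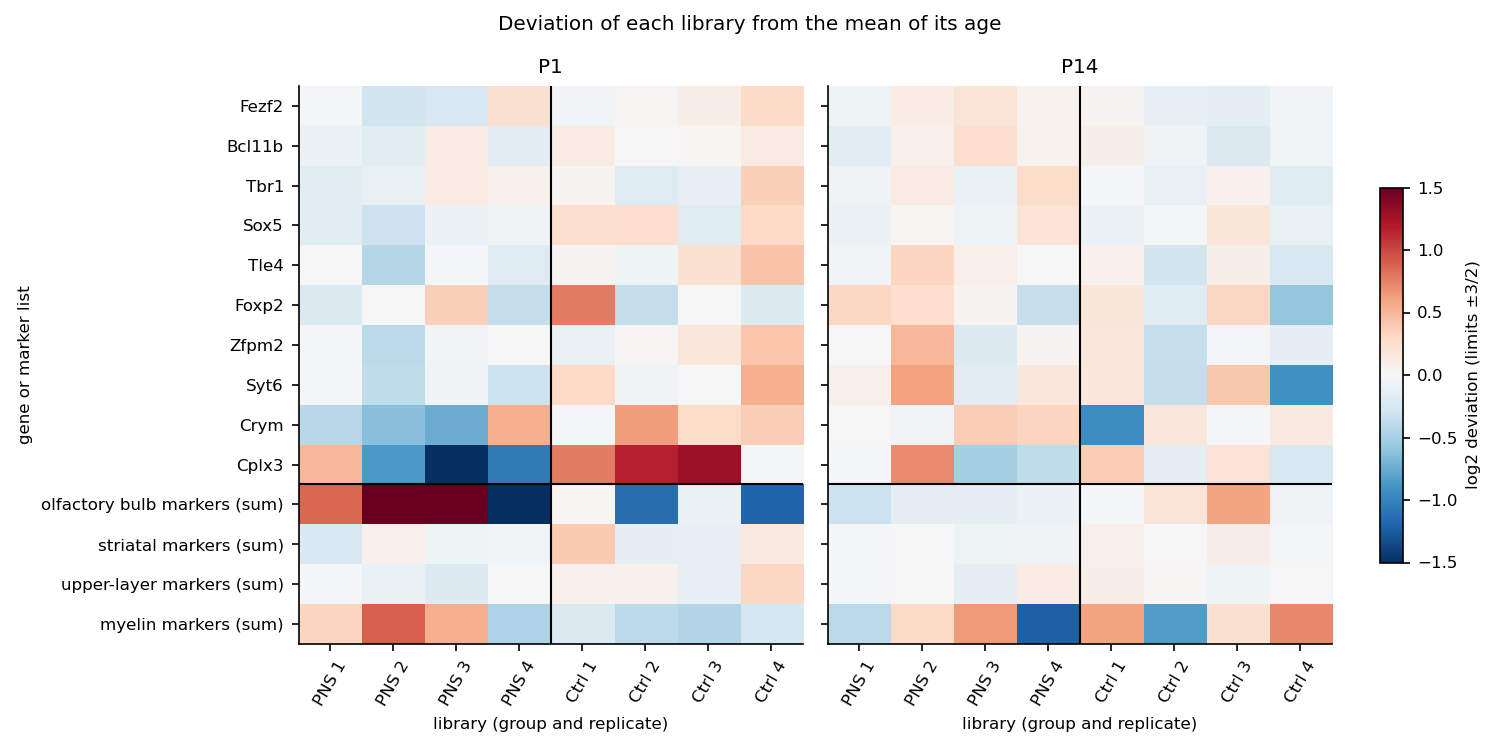
Log2 deviation of each library (columns, PNS left of Ctrl) from the mean of the 8 libraries of its age, for the 10 members and for the summed markers of 4 tissues or cell types (rows below the line); red is above and blue below the mean, with colours capped at ±1.5. At P1 the olfactory bulb row is red in PNS replicates 1 to 3 and blue in PNS replicate 4, and Crym is blue in PNS replicates 1 to 3 and red in PNS replicate 4.

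Within groups, the members did not vary as 1 block. Over the 8 libraries of an age, the deviations of 45 member pairs from their group means were positively correlated in 27 pairs at P14 (median Pearson r 0.13) and in 28 pairs at P1 (median r 0.26), as a description over libraries that share their depth and scaling. Tle4 and Zfpm2 went together at both ages, with r of 0.81 at P14 and 0.89 at P1, and so did Tle4 and Syt6, with 0.83 at P14 and 0.76 at P1. Fezf2 and Bcl11b had r of 0.96 at P14 and -0.27 at P1, and Fezf2 and Crym -0.29 at P14 and 0.80 at P1. Of 12394 other genes with a mean of at least 50 at both ages, those whose deviations over the 16 libraries were most like the members' mean were Syt14 (r = 0.87), Smurf1 (0.84), Sptbn4 (0.84), Sox11 (0.83), Spsb1 (0.82) and Xkr7 (0.81). Syt14 encodes a synaptotagmin, Smurf1 a ubiquitin ligase, Sptbn4 a spectrin of the axon initial segment and Sox11 an SRY-box factor of immature neurons.

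Other genes of deep-layer neurons were read from 4 lists of known markers and partners, each described by counts. In the layer 6 corticothalamic list, 12 of 12 tested genes had higher values in PNS at P14 (median log2 difference 0.12), and 8 of 11 had lower values in PNS at P1 (median -0.13); none was called at either age. The smallest p at P14 belonged to Garnl3 (0.13), Hs3st4 (0.19) and Grik3 (0.095), and at P1 to Grik3 (-0.22), Hs3st4 (-0.29) and Nfib (-0.17). Grik3 encodes a kainate receptor subunit and Hs3st4 a heparan sulfate sulfotransferase of layer 6 neurons. The P14 effect minus the P1 effect was positive for 9 of 11 (median 0.26), led by Grik3 (0.31), Hs3st4 (0.49) and Garnl3 (0.27).

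In the layer 5 subcerebral list, 6 of 15 genes had higher values in PNS at P14 (median -0.012) and 12 of 15 had lower values in PNS at P1 (median -0.078), with 0 called. The genes with the smallest p were Bcl6 (0.13), Kcng1 (0.11) and Chst8 (0.13) at P14, and Igfbp4 (0.32), Diaph3 (-0.36) and Bcl6 (0.36) at P1. The effect difference was positive for 12 of 15 (median 0.080), with Igfbp4 at -0.39, Ldb2 at 0.24 and Chst8 at 0.19. In the subplate and layer 6b list, 5 of 12 genes had higher values in PNS at P14 (median -0.016) and 7 of 12 at P1 (median 0.23), so its median at P1 had the opposite sign to Cplx3. Its genes with the smallest p were Inpp4b (-0.26), Drd1 (0.24) and Moxd1 (0.15) at P14, and Svil (0.46), Lpar1 (0.65) and Nr4a2 (-0.55) at P1. Nr4a2 encodes a nuclear receptor of subplate and claustrum neurons. The effect difference of the list was positive for 5 of 12 (median -0.19), with Svil at -0.58, Lpar1 at -0.80 and Inpp4b at -0.64.

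Among partners and targets of the deep-layer programme, 11 of 15 had higher values in PNS at P14 (median 0.050) and 10 of 16 had lower values in PNS at P1 (median -0.081), with 0 called. Reln, the secreted glycoprotein of Cajal-Retzius cells and of some interneurons, was at 0.35 at P14 and 0.46 at P1. Grin2b, an NMDA receptor subunit gene bound by Tbr1, was at 0.23 at P14, and Nfe2l3 at 0.20 at P14 and -0.24 at P1. Dkk3 was at -0.37 at P1. The effect difference was positive for 11 of 15 (median 0.21), with Nfe2l3 at 0.44, Foxp1 at 0.44 and Dkk3 at 0.33. The upper-layer markers, for comparison, had lower values in PNS for 8 of 12 genes at P14 (median -0.033) and for 8 of 12 at P1 (median -0.099). At P1, 4 of these 12 had an unadjusted limma p below 0.05 with lower values in PNS, where 2.09% of all genes did. Lower values in PNS at P1 were therefore not particular to deep-layer genes.

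At P14 against P1, 6 genes of the layer 6 list fell and 2 rose in PNS, and 8 fell and 2 rose in Ctrl, of 12, with the log2 differences given here in parentheses. Counts in this and the other 3 lists stand beside the shares over all genes, of which 38% were called lower and 34.3% higher in PNS, and 36.4% lower and 34.8% higher in Ctrl, so calls in both directions were common. The genes that fell in both conditions were Sla (-3.33 in PNS and -3.45 in Ctrl), the nuclear factor I genes Nfib (-1.88 in PNS and -2.07 in Ctrl) and Nfia (-1.19 in PNS and -1.44 in Ctrl), and Ntsr1, the neurotensin receptor gene that marks corticothalamic neurons (-1.54 in PNS and -1.90 in Ctrl). Rprm (-1.43 in PNS and -1.63 in Ctrl) and Thsd7b (-0.92 in PNS and -0.87 in Ctrl) fell in both as well. Garnl3 (1.19 in PNS and 0.94 in Ctrl) and the alpha-catenin gene Ctnna3 (1.64 in PNS and 2.15 in Ctrl) rose in both. Hs3st4 (-0.62) and Grik3 (-0.43) fell in Ctrl.

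In the layer 5 list, 6 genes rose and 3 fell in each condition, of 15. Those that rose in both were Pcp4 (3.24 in PNS and 3.13 in Ctrl), a calmodulin regulator gene, Rbp4 (2.93 in PNS and 2.75 in Ctrl), a retinol binding protein gene of layer 5, and Kcng1 (2.32 in PNS and 2.11 in Ctrl), a potassium channel subunit gene. The transcription factor genes Bcl6 (1.38 in PNS and 1.64 in Ctrl) and Etv1 (1.31 in PNS and 1.3 in Ctrl), and Chst8 (1.19 in PNS and 1.03 in Ctrl), also rose in both. Bhlhe22 (-1.37 in PNS and -1.39 in Ctrl), a basic helix-loop-helix factor gene, and Fam19a2 (-0.69 in PNS and -0.45 in Ctrl) fell in both, Igfbp4 (-0.55) fell in PNS and S100a10 (-0.59) in Ctrl.

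In the subplate list, 5 genes rose and 3 fell in each condition, of 12. Moxd1 (1.76 in PNS and 2.11 in Ctrl), Tmem163 (1.19 in PNS and 1.72 in Ctrl), the cadherin gene Cdh18 (1.3 in PNS and 1.61 in Ctrl) and the GABA-A receptor subunit gene Gabra5 (0.26 in PNS and 0.17 in Ctrl) rose in both, unlike Nxph4 (-2.04 in PNS and -2.15 in Ctrl) and Svil (-1.6 in PNS and -0.99 in Ctrl), which fell in both. Unc5c (0.40), a netrin receptor gene, rose and Lpar1 (-0.92) fell in PNS, and Inpp4b (0.42) rose and Drd1 (-0.56) fell in Ctrl. Cplx3 thus rose more than any gene of this list that passed.

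Of 15 partners and targets, 9 fell and 3 rose in PNS, and 11 fell and 2 rose in Ctrl. Nfe2l3 (-1.84 in PNS and -2.26 in Ctrl) and Auts2 (-2.07 in PNS and -2.02 in Ctrl), a chromatin regulator gene bound by Tbr1, had the largest decreases. Reln (-1.25 in PNS and -1.11 in Ctrl), Neurod1 (-0.83 in PNS and -0.72 in Ctrl), Tle1 (-0.78 in PNS and -0.66 in Ctrl) and Tshz3 (-0.64 in PNS and -0.84 in Ctrl) fell in both, as did Ski (-0.37 in PNS and -0.44 in Ctrl) and Tle3 (-0.29 in PNS and -0.41 in Ctrl). Dkk3 (2.05 in PNS and 1.76 in Ctrl) and Grin2b (0.54 in PNS and 0.33 in Ctrl) rose in both. Foxp1 (0.55) rose in PNS, and Bcl11a (-0.44) and Sox6 (-0.37) fell in Ctrl. Median differences were -0.54 in PNS and -0.75 in Ctrl for the layer 6 list, 0.072 and 0.0084 for layer 5, 0.095 and 0.066 for the subplate, and -0.37 and -0.44 for the partners.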

How the data were processed

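Bulk poly(A) RNA of mouse medial prefrontal cortex was sequenced, from micro-scale column extracts and an in-house library protocol per the labels. Per the submitters' processing notes, cutadapt, STAR 2.7.3a, HTSeq, DESeq2 and GRCm38 were used; no label or note names the annotation release or strand. The deposited signal values are counts normalized by the authors, 1 table per age, rounded to 2 decimals. In every library 100% of values were whole multiples of the value of 1 read within 0.0051, so whole reads were recovered by division. By Ensembl ID, 19713 of 19748 genes at P1 and 18980 of 19014 at P14 matched the reference, and the deposited name differed from the reference symbol in 305 and 290 genes.

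PNS and Ctrl were compared within each age with limma-trend (limma 3.58.1 under R 4.3.3). Values were transformed as log2(value + 1), genes averaging below 10 were left out, and p-values were Benjamini-Hochberg adjusted over all remaining genes, with 0.05 as threshold. A fold change on this scale understates the change of low genes such as Cplx3 at P1. The effect difference used 1 fit of all 16 libraries. Age was tested by edgeR 4.0.16 (quasi-likelihood, TMM, filterByExpr) on recovered reads in 1 model of 4 groups. Each fit was tested on simulated data. A member is called at an adjusted p below 0.05.

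The members, lists and markers were chosen with earlier results of these data known. All 10 members are named everywhere, with the 3 genes of smallest p and each called gene of 4 further lists, and the 6 genes most like the members; a few listed genes enter the counts but are not reported here by name. Alternatives were a pseudocount of 5, no filter, edgeR and DESeq2 1.42.0 on recovered reads, striatal and olfactory bulb scores as covariates, leaving out each library or PNS replicates 2 and 3 of P1, and a replicate block. Libraries that share a number were not treated as paired, except with the replicate block. Precision is limited by 4 libraries per group.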

Additional observations from a re-analysis of the deposited data

Results flagged for a closer look

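In 2 of 40 groups of 4 libraries 1 library lay far from the other 3, judged by its gap to the nearest library as a share of the whole range, against the 95% critical value of Dixon's test, which chance alone passes in about 1 of 20 groups. Zfpm2 in PNS at P1 was lowest in replicate 2, with 2385 against 3069 in the next library, a share of 0.906. This library also had the highest olfactory bulb marker sum. Sox5 in Ctrl at P1 was lowest in replicate 3, with 2540.5 against 3403.5 in the next library, a share of 0.842.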

How the results depend on the processing

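The members' median kept its sign in every comparison under all alternatives run. No member was called in PNS against Ctrl at P14 or in the effect difference under any alternative, and at P1 only Crym was, without PNS replicate 4. Over all genes, DESeq2 called 70 genes at P1 (57 higher, 13 lower), 5 at P14 and 9 in the effect difference, and the olfactory bulb covariate 2 at P1. Leaving out single libraries gave 0 to 123 calls at P1, with 0 to 1 member called, 0 to 5 at P14 and 0 to 65 in the effect difference. At P1 the 123 calls came without PNS replicate 4 (120 higher and 3 lower in PNS), and 1 call without Ctrl replicate 1. In the effect difference the 65 calls came without PNS replicate 4 of P1 (0 positive and 65 negative). Signs turned at P1 for Foxp2 with the striatal covariate (0.038), for Fezf2 (0.076) and Tbr1 (0.021) with the olfactory bulb covariate, and for Fezf2 without PNS replicates 2 and 3 (0.012). Leaving out single libraries, the log2 difference ranged from -0.25 to 0.13 for Foxp2 (turned without Ctrl replicate 1) and -0.11 to 0.069 for Tbr1 (Ctrl replicate 4, PNS replicate 1) at P1. At P14 it ranged from -0.35 to 0.051 for Cplx3 (PNS replicates 3 and 4, Ctrl replicate 1), -0.035 to 0.092 for Sox5 (PNS replicate 4, Ctrl replicate 4) and -0.039 to 0.27 for Foxp2 (Ctrl replicate 4). For Fezf2 at P14 against P1 in PNS it ranged from -0.052 to 0.14 (replicates 2 and 3 of P1, replicate 3 of P14). In Ctrl, the age call of Fezf2 was lost without replicate 3 or 4 of P1 or replicate 2, 3 or 4 of P14 (adjusted p up to 0.122 by edgeR), and Crym was called without replicate 2 of P1 or replicate 1 of P14. The causes were not tested. All other values of single members, 460 with 1 library left out and 265 under the other alternatives, kept their sign and their side of the threshold. With the replicate number as a block, 0 genes were called at P1, at P14 and in the effect difference, and Crym was also called in Ctrl with age (0.52). Same-numbered libraries had correlations of -0.13 to 0.027 at P14 and -0.15 to 0.21 at P1. At P14 no PNS library correlated best with the Ctrl library of its number. At P1, PNS replicates 3 and 4 did (r = 0.13 and 0.21) and replicates 1 and 2 did not. Whether number stands for a shared handling at P1 was not tested. Cplx3 at P1 rests on 4 to 36 reads per library, so counting error limits its precision.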
